A study of Mus musculus with 4 samples.

Results

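mmu-miR-484, mmu-miR-320-5p, mmu-miR-877-5p and mmu-miR-1224-5p are miRNAs described in the literature as made without Drosha, although they still need Dicer. They were chosen by name, as products of capped precursors (miR-484, miR-320) or of mirtrons (miR-877, miR-1224), and they are 4 of the 1059 mature miRNA names counted. Small RNA was sequenced from tissue at the rostral end of the telencephalic primordium of E11.5 mouse embryos. The Rx-Dicer mutants gave 2 libraries and had the genotype Rx-Cre;Dicer F/F, and their control littermates, of the genotype Dicer F/F, gave the other 2. Both groups therefore carried the floxed Dicer allele (Dicer1tm1Bdh/J), and the groups differed in the Cre. The sample labels call the controls WT, whereas the series' design text gives DicerF/F, which is the name used here. The Cre was driven by regulatory sequences of Rx (Rax), a homeobox gene of the early eye and forebrain field. Rx3-Cre mice were kept on a CD1 background and the floxed Dicer line on C57BL/6. Recombination was described as strongest in the rostral and ventral telencephalon and lower in the neocortex, so each mutant library can mix recombined and unrecombined cells. The number of embryos per library is not given in the sources used here. The labels give the libraries as separate samples without naming their embryos, so the p-values below measure the spread between these samples, which may be technical. Dicer mRNA is not measured in small RNA libraries, and the counts do not check the deletion.

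Most miRNAs are cut from long nuclear transcripts by Drosha with its partner DGCR8, exported as hairpins, and cut again by Dicer into the mature miRNA. A mirtron is a short intron that folds into a hairpin once it is spliced and debranched, whereas a capped precursor is transcribed directly as the hairpin, so both reach Dicer without Drosha. miR-451a takes the opposite route, since it needs Drosha and is finished by Ago2 without Dicer.

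The libraries of the Rx-Dicer mutants held 651031 and 516517 counts, and those of the control littermates held 1299067 and 1133553 counts, with 1 row kept for each mature miRNA. Forebrain miRNAs were abundant in each library. miR-9-5p, a miRNA of neural progenitors, took 28.2% and 29.4% of the counts in the mutants and 31.5% and 42.6% in the controls. Markers of other tissues were present as well. The summed CPM (counts relative to each library's total, before any other scaling) of 3 red-cell miRNAs were 8875 and 9655 in the mutants and 5314 and 5177 in the controls, led by miR-486a-5p with 7616, 8371, 4713 and 4463 CPM in the same order. The 4 mesenchymal miRNAs summed to 13053 and 12087 CPM in the mutants and 3897 and 8525 CPM in the controls, led by miR-199a-5p with 12190, 11463, 3645 and 7963 CPM. Both of these sums were higher in both mutant libraries than in both control libraries. TMM scaling, which matches libraries on the bulk of their miRNAs instead of on the total, is used for the fold changes below. After it the red-cell sums were 7595 and 8504 CPM against 5737 and 6362 CPM. Of the 3 red-cell miRNAs, miR-486a-5p and miR-451a were higher in both mutants. The groups overlapped for miR-144-5p, at 18.4 and 35.8 CPM in the mutants and 19.1 and 41.2 CPM in the controls. The mesenchymal sums were then 11170 and 10645 CPM against 4207 and 10477.5 CPM, so that control replicate 2 came close to the mutants. Of the 4 mesenchymal miRNAs, miR-199a-5p was higher in both mutants after this scaling, and the groups overlapped for the others. miR-214-5p, for example, was at 300 and 266 CPM in the mutants and 106 and 292 CPM in the controls. The part of these tissues in the results below was not tested. Summed levels for white blood cells were 151, 155, 81.6 and 113 CPM in the same order, led by miR-142a-5p. Those for trunk levels of the embryo were 605, 629, 535 and 565 CPM, led by miR-10a-5p in the mutants and by miR-10b-5p in the controls. The endothelial miR-126a-5p was at 504, 277, 235 and 328 CPM. The epithelial sum was 275, 918, 186 and 348 CPM, led by miR-205-5p, with miR-203-5p at 0 in every library. After TMM scaling the trunk sums were lower in both mutants (518 and 554 CPM against 578 and 694 CPM), as were the forebrain sums (265955 and 280453 CPM against 369155 and 560104 CPM). The scaled sums for white blood cells (129 and 136 CPM against 88.1 and 139 CPM), endothelium and epithelium overlapped. Because the tissue was sequenced in bulk, fewer cells that make a miRNA and less of it per cell cannot be told apart.

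Of the 4 miRNAs, miR-484 and miR-877-5p reached the minimum of 10 counts in at least 2 libraries and were tested among the 274 miRNAs that did so. Neither passed edgeR's quasi-likelihood test at a Benjamini-Hochberg adjusted threshold of 0.05, and neither was under 0.05 before adjustment or passed DESeq2's Wald test. Over all 274 miRNAs, 2.55% were called lower in the mutants (7 miRNAs) and 0% were called higher. Before adjustment, 23 were lower and 3 higher at the same threshold. DESeq2's Wald test called 11 lower and 0 higher. The calls themselves depended on single libraries, with 1 lower without Rx-Dicer replicate 1 and 0 without either control replicate. The unadjusted split also depended on the scaling, with 10 lower and 51 higher where libraries were scaled by total counts alone, 15 lower and 22 higher by total counts without miR-9-5p, and 61 lower and 0 higher with equal red-cell miRNAs.

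miR-484, described as the product of a capped precursor and as a repressor of the mitochondrial fission gene Fis1, was the most abundant of the 4. It had 1555 and 1355 counts in the Rx-Dicer mutants and 4067 and 2405 counts in the control littermates, and stood between ranks 44 and 52 in each library. As a share of all counts this was 2389 CPM (95% Wilson interval 2273 to 2510) and 2623 CPM (2487 to 2767) in the mutants, and 3131 CPM (3036 to 3228) and 2122 CPM (2039 to 2208) in the controls. Control replicate 1 was the highest and control replicate 2 the lowest, so that the unscaled groups overlapped, and the counting intervals overlapped for the pair of mutant libraries alone. The Wilson, Poisson and counting intervals given here cover counting error only, since PCR copies are not independent molecules, whereas the intervals of fold changes rest on the spread between libraries.

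After TMM scaling miR-484 was at 2044 and 2310 CPM in the mutants and at 3380 and 2607 CPM in the controls. Both mutant libraries then lay below both control libraries, which was true of 24.5% of the 274 miRNAs tested, whereas 17.9% lay above. The means were 2177 ± 188 CPM (SD, n = 2) and 2994 ± 546 CPM (SD, n = 2). The log2 fold change was −0.46 with a standard error of 0.27 and a 95% interval from −1.08 to 0.16 (edgeR's quasi-likelihood test, Benjamini-Hochberg adjusted p = 0.602, lower in 4 of 4 pairs of a mutant and a control library). On the linear scale the interval runs from 0.472 to 1.12 of the control level, so it includes the control level itself. Among the 274 miRNAs, 51 had a more negative fold change.

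The value for miR-484 moved with the controls and with the scaling. Control replicates 1 and 2 differed by 0.37 on the log2 scale (1.30-fold) and the mutant replicates by 0.18 (1.13-fold), against medians over all miRNAs tested of 0.41 and 0.29. Without control replicate 1 the fold change was −0.22, and without control replicate 2 it was −0.63. Scaling by total counts gave −0.068 and scaling by total counts without miR-9-5p gave −0.23, and under both the groups overlapped. Scaling to equal red-cell miRNAs gave −0.89. These scalings also moved the median of all miRNAs tested, from 0.035 under TMM to 0.44, 0.26 and −0.37 in that order. Relative to that median, miR-484 stood at −0.52 to −0.49 under each of the 5 scalings run on all 4 libraries. This range was narrow because a scaling moves all miRNAs about alike. Under TMM it was −0.25 without control replicate 1 and −0.68 without control replicate 2.

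**Figure D1:**
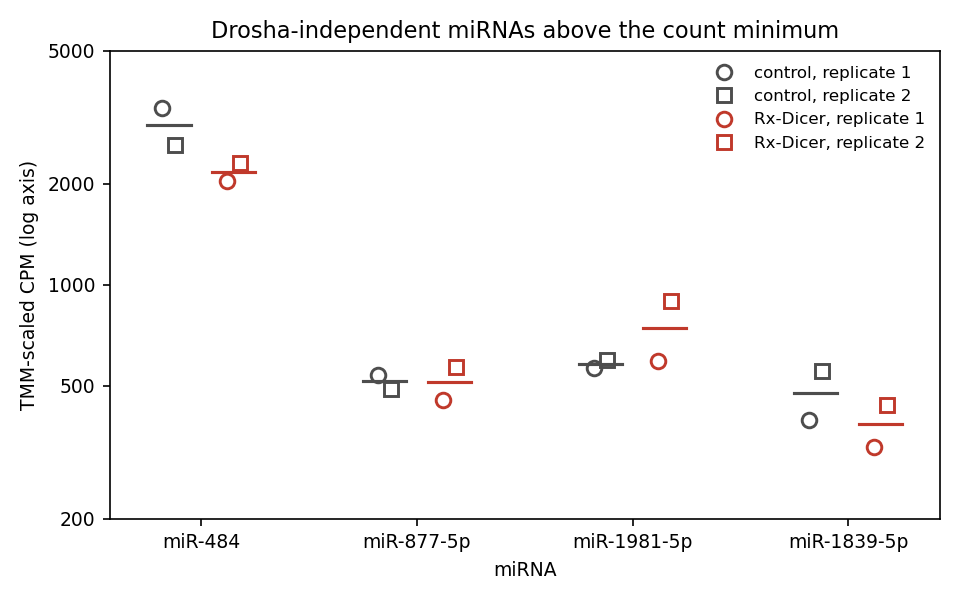
TMM-scaled CPM on a log axis for the 4 miRNAs described as made without Drosha that reached the count minimum, with 1 point for each library and a line at each group's mean (n = 2). For miR-484 both Rx-Dicer points (2044 and 2310 CPM) lie below both control points (3380 and 2607 CPM), an order that is lost when libraries are scaled by total counts, and for miR-877-5p, miR-1981-5p and miR-1839-5p the groups overlap.

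The gene of miR-484 lies outside any annotated intron of a protein-coding gene on its strand. Its hairpin, Mir484, spans 67 bases at chr16:14159626-14159692 on the plus strand (GRCm38), and the mature miRNA of 22 bases lies at chr16:14159630-14159651, starting 4 bases into the hairpin. The annotated start of Nde1, which encodes a centrosomal protein needed for the divisions of cortical progenitors, is 3583 bases further along the same strand. On the minus strand the hairpin overlaps Marf1, with 19 of its bases in an exon of 1 annotated transcript. Whether the counting used strand is not given in the sources used here. RNAfold drew the hairpin with 36 paired bases and a minimum free energy of −24.6 kcal/mol.

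miR-320-5p belongs to the other capped precursor. Its 3p arm is described as the main product, because the cap is described as keeping its 5p arm from being loaded. miR-484 starts 4 bases into its own hairpin, so this account is given for miR-320 only. It was the 5p arm that was counted here, and the 3p arm was not analysed here. miR-320-5p had 0 counts in both mutant libraries and 1 count in each control library. The 0 of 1167548 counts summed over the mutants allows a level of up to 2.57 CPM by the floor of 3 counts over the group, or up to 3.16 CPM by the exact 95% Poisson interval. The 2 of 2432620 counts in the controls correspond to 0.822 CPM, with the same kind of interval from 0.0996 to 2.97. Both groups were at or under the floor of 3 counts, so no fold change is given, and a difference was not detectable at this depth.

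The mirtrons miR-877-5p and miR-1224-5p differed widely in abundance, with 1780 against 10 counts over the 4 libraries. miR-877-5p comes from an intron of Abcf1, which encodes an ATP-binding cassette protein that acts in translation initiation. It had 345 and 334 counts in the mutants and 649 and 452 counts in the controls. The unscaled shares were 530 CPM (95% Wilson interval 477 to 589) and 647 CPM (581 to 720) in the mutants, and 499.6 CPM (463 to 540) and 399 CPM (364 to 437) in the controls. Both mutant libraries were thus above both controls as a share of all counts, although the intervals of Rx-Dicer replicate 1 and control replicate 1 overlapped. With scaling by total counts the median log2 fold change of all 274 miRNAs was 0.44, and 21.9% were negative. miR-877-5p was then at 0.39, and the share of all miRNAs with this order of libraries was not counted at this scaling.

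After TMM scaling miR-877-5p was at 453 and 569.5 CPM in the mutants and at 539 and 490.05 CPM in the controls. Rx-Dicer replicate 1 was the lowest and Rx-Dicer replicate 2 the highest, so that the mutants enclosed the controls and the groups overlapped. The means were 512 ± 82.0 CPM (SD, n = 2) and 515 ± 34.9 CPM (SD, n = 2). The log2 fold change was −0.010 with a standard error of 0.24 and a 95% interval from −0.57 to 0.55 (edgeR's quasi-likelihood test, Benjamini-Hochberg adjusted p = 0.99, lower in 2 of 4 pairs). The interval covers 0.675 to 1.46 of the control level. Of all 274 miRNAs, 119 had a more negative and 154 a more positive fold change.

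The sign of this fold change was set by the scaling and by single libraries. It was 0.39 with total counts, 0.21 with total counts without miR-9-5p and 0.027 with DESeq2's size factors, and −0.43 with equal red-cell miRNAs. Both mutants lay above both controls with total counts, whether or not miR-9-5p was included, and below them with equal red-cell miRNAs. Without Rx-Dicer replicate 1 it was 0.15 and without control replicate 1 it was 0.099, whereas without Rx-Dicer replicate 2 it was −0.18. Relative to the median of all miRNAs tested, miR-877-5p stood at −0.067 to −0.045 under the 5 scalings. It was −0.21 without Rx-Dicer replicate 2 and 0.16 without Rx-Dicer replicate 1.

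**Figure D2:**
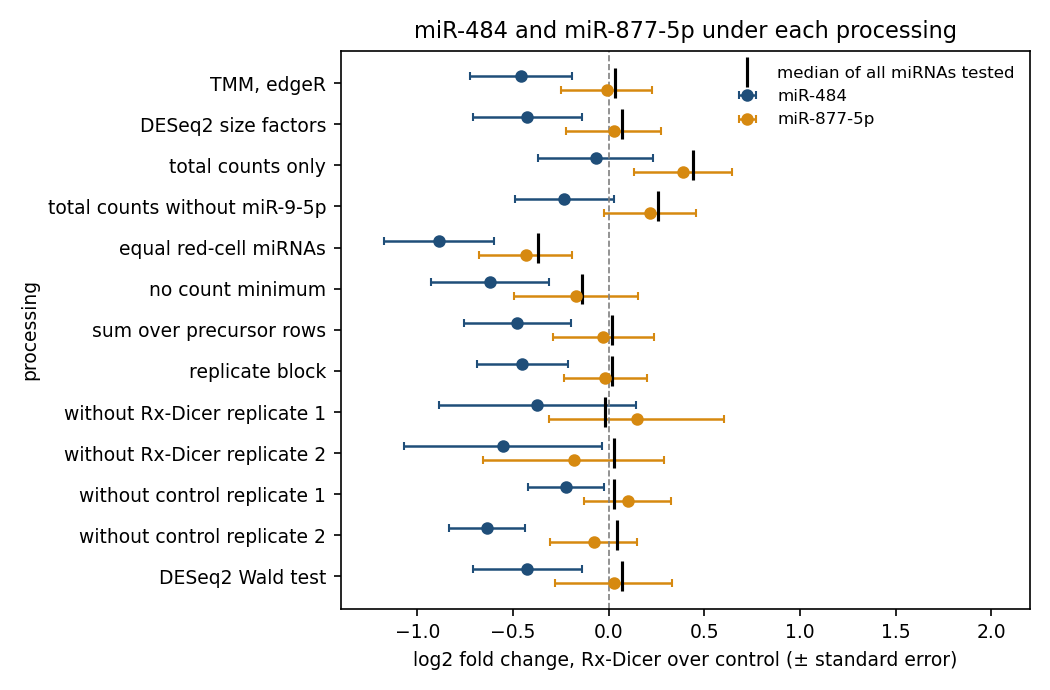
Log2 fold change of Rx-Dicer mutants over control littermates for miR-484 and miR-877-5p under each processing, with bars for the standard error and a black mark at the median of all miRNAs tested. miR-484 ranges from −0.89 to −0.068 and lies left of the median in each row, whereas miR-877-5p lies within −0.21 and 0.16 of the median and changes sign, from −0.43 to 0.39.

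miR-1224-5p comes from the last intron of Vwa5b2, which encodes a protein with a von Willebrand factor A domain. It had 0 and 1 counts in the mutants and 5 and 4 counts in the controls, too few for the test. Both mutant libraries were under the floor of 3 counts and both control libraries were above it, but the mutant libraries were also the shallower ones. Summed over each group this was 1 of 1167548 counts, or 0.856 CPM with an exact 95% Poisson interval of 0.0217 to 4.77, and 9 of 2432620 counts, or 3.70 CPM with an interval of 1.69 to 7.02. The ratio of these unscaled shares, mutants to controls, was 0.232 with an exact counting interval of 0.00528 to 1.67. This interval includes equal levels, so a difference in these shares was not detectable at this depth. The ratio was not computed with TMM or another scaling.

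Each of these mirtron hairpins is a whole intron. Mir877 spans 85 bases at chr17:35960730-35960814 on the minus strand (GRCm38), from end to end of intron 12 of the 22 introns of an Abcf1 transcript, and its mature miRNA of 20 bases lies at chr17:35960795-35960814. Mir1224 also spans 85 bases, at chr16:20604452-20604536 on the plus strand, and is intron 22 of 22 of a Vwa5b2 transcript, with its mature miRNA of 21 bases at chr16:20604452-20604472. In both, the mature miRNA starts with the first base of the intron, so the GU of the 5′ splice site is its own 5′ end. RNAfold drew Mir877 with 56 paired bases at −36.5 kcal/mol and Mir1224 with 58 paired bases at −42.8 kcal/mol. The hairpins are shown with the mature miRNA in capitals, since their ends show the GU and AG of the splice sites.
Mir877 hairpin: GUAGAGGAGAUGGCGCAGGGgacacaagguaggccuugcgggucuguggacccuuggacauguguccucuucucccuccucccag
Mir1224 hairpin: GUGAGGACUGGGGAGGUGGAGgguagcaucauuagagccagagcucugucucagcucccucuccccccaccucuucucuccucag

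The mature sequences come from RefSeq (GRCm38.p6), in which 895 of the 1059 names and 3 of the 4 miRNAs had an entry. They are shown with the seed, bases 2 to 8, in capitals, because the seed decides which mRNAs a miRNA can pair with. miR-1981-5p, a further mirtron described below, is added for comparison.
mmu-miR-484: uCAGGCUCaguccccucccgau
mmu-miR-877-5p: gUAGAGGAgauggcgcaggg
mmu-miR-1224-5p: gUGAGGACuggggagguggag
mmu-miR-1981-5p: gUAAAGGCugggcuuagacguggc
No other miRNA with a RefSeq sequence carries the seed of miR-484, miR-877-5p or miR-1224-5p, so none of them falls into a seed family here. The share of G was 55% in miR-877-5p and 61.9% in miR-1224-5p, whereas it was 41.7% in the mirtron product miR-1981-5p and 18.2% in miR-484. The median over 846 names with a mature sequence and a hairpin was 30.4%, and 3.55% of these names had 55% or more. A hairpin that begins with GU and ends with AG, with the mature miRNA at its first base, was found for 13 of the 846 names (1.54%).

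The mirtrons were also counted by position. Introns of protein-coding genes were searched for hairpins whose ends each lie within 3 bases of the ends of 1 annotated intron. This gave 16 mature names, miR-877-5p and miR-1224-5p among them, and all 16 matched their intron exactly. miR-877-5p and miR-1981-5p were the 2 of these that reached the count minimum, and neither passed edgeR's test. These were 12.5% of the mirtron names, against 25.9% of all 1059 names. Of the rest, 6 were at 0 in every library (37.5% of the 16, against 40.1% of all names), 7 had at most 3 counts in any library, and miR-1224-5p reached 5. The most counted of the 7, miR-7091-5p from an intron of Dnase1l1, had 3 and 0 counts in the mutants and 3 and 3 in the controls.

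miR-1981-5p, from intron 5 of 7 of Marc2, which encodes an enzyme of the mitochondrial outer membrane, was about as abundant as miR-877-5p. Its hairpin of 82 bases lies at chr1:184822407-184822488 on the minus strand. It had 449 and 525 counts in the mutants and 680 and 549 counts in the controls, or 590.2 and 895 CPM against 565 and 595 CPM after TMM scaling. Rx-Dicer replicate 2 stood above the other libraries, which lay close together, and the groups overlapped. The means were 743 ± 216 CPM (SD, n = 2) and 580.2 ± 21.3 CPM (SD, n = 2). The log2 fold change was 0.36 with a 95% interval from −0.29 to 1.00 (edgeR's quasi-likelihood test, Benjamini-Hochberg adjusted p = 0.671). It was 0.025 without Rx-Dicer replicate 2, 0.76 with total counts alone and −0.070 with equal red-cell miRNAs. With total counts alone both mutants lay above both controls, and miR-1981-5p was under 0.05 before adjustment but did not pass edgeR's test after it. At that scaling 51 of the 274 miRNAs were higher before adjustment, and the median log2 fold change was 0.44. The share of all miRNAs with this order of libraries was not counted.

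Among the 7 further names described as made without Drosha, miR-1981-5p and miR-1839-5p reached the count minimum and neither passed edgeR's test. miR-1839-5p had 249 and 257 counts in the mutants and 475 and 510 counts in the controls, or 327 and 438 CPM against 395 and 553 CPM after TMM scaling. The groups overlapped, with Rx-Dicer replicate 2 above control replicate 1. The log2 fold change was −0.31 with a 95% interval from −0.97 to 0.35 (edgeR's quasi-likelihood test, Benjamini-Hochberg adjusted p = 0.722). It was 0.11 with total counts alone and −0.72 with equal red-cell miRNAs. Leaving out each library in turn gave −0.53 (without Rx-Dicer replicate 2) to −0.046 (without control replicate 2). With equal red-cell miRNAs both mutants lay below both controls, and miR-1839-5p was under 0.05 before adjustment but did not pass edgeR's test after it. At that scaling 61 of the 274 miRNAs were lower before adjustment. The median log2 fold change was −0.37, and 84.7% were negative. The share of all miRNAs with both mutants below both controls was not counted at this scaling. The other 5 names had at most 6 counts in any library. miR-702-5p had 3 and 5 counts in the mutants and 5 and 6 in the controls, and miR-3102-5p.2-5p had 6 and 6 counts in the mutants and 3 and 2 in the controls. miR-668-5p, miR-3102-5p and miR-1982-5p did not exceed 3 counts.

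In all, the miRNAs described as made without Drosha and the mirtrons found by position make 23 names, of which 4 could be tested. None of the 4 passed edgeR's test or DESeq2's Wald test, and none was under 0.05 before adjustment in either of these fits of all 4 libraries with the count minimum. miR-484 was under 0.05 before adjustment with no count minimum, without control replicate 2 and with equal red-cell miRNAs, and did not pass after adjustment in any of these. Their median log2 fold change was −0.16, against 0.035 over all 274 miRNAs tested. The 4 were not alike in sign, with miR-1981-5p above 0 and miR-484, miR-1839-5p and miR-877-5p below it under TMM scaling.

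Ratios between miRNAs of the same library do not depend on the scaling. The ratio of miR-484 to miR-877-5p was 4.51 and 4.06 in the mutants and 6.27 and 5.32 in the controls. Both mutant ratios were lower, by 1.35-fold on average, with a log2 difference of −0.43 (exact two-sided permutation test, p = 0.33, which is the smallest that 2 libraries against 2 can give, and 0.417 after Benjamini-Hochberg adjustment over the 5 ratios compared). Leaving out each library in turn gave −0.55 to −0.32.

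The ratios to miR-451a, which is finished without Dicer, were lower in both mutants. That of miR-484 was 1.93 and 2.11 in the mutants and 5.37 and 3.12 in the controls, a log2 difference of −1.02 (exact permutation test, p = 0.33, adjusted p = 0.417) that was −0.63 without control replicate 1 and −1.41 without control replicate 2. That of miR-877-5p was 0.428 and 0.520 in the mutants and 0.857 and 0.586 in the controls, a log2 difference of −0.59 (exact permutation test, p = 0.33, adjusted p = 0.417) that was −0.31 without control replicate 1 and −0.86 without control replicate 2. miR-451a is a red-cell miRNA, and its own level after TMM scaling was 1059 and 1095 CPM in the mutants and 629 and 836 CPM in the controls. It was thus higher in both mutants, as were miR-486a-5p and the red-cell sum given above, whereas the groups overlapped for the red-cell miR-144-5p. The part of red cells in these ratios was not tested.

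The ratios to miR-9-5p, which is made through both Drosha and Dicer, were not lower in the mutants on average. That of miR-877-5p was 0.00188 and 0.00220 in the mutants and 0.00159 and 0.000935 in the controls, higher in both mutants, with a log2 difference of 0.74 (exact permutation test, p = 0.33, adjusted p = 0.417). Without control replicate 1 it was 1.12, and without control replicate 2 it was 0.36. That of miR-484 was 0.00848 and 0.00892 in the mutants and 0.00995 and 0.00498 in the controls. These overlapped, with the mutants between the controls, and the log2 difference of 0.31 (exact permutation test, p = 1) became −0.19 without control replicate 2 and 0.81 without control replicate 1. miR-9-5p itself was at 240963 and 259155 CPM in the mutants and at 339853 and 524056 CPM in the controls after TMM scaling. It was thus lower in both mutants, with a log2 fold change of −0.79 (edgeR's quasi-likelihood test, Benjamini-Hochberg adjusted p = 0.344), so the denominator of these ratios moved as well.

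The miRNAs with the pattern most like that of miR-484 over the 4 libraries were miR-532-5p, miR-340-5p and miR-181d-5p. Their root-mean-square differences from miR-484 in centred log2 scaled CPM were 0.031, 0.042 and 0.079, against a median of 0.41 over the 273 other miRNAs tested. miR-532-5p was at 3078 and 3548 CPM in the mutants and at 4940 and 4028 CPM in the controls, in the same order of libraries as miR-484. For miR-877-5p the nearest were miR-151-5p, miR-362-5p and miR-298-5p, at 0.0087, 0.037 and 0.055 with a median of 0.32. miR-362-5p was at 481 and 573 CPM in the mutants and at 568 and 491 CPM in the controls, again with the mutants on either side of the controls. With 4 libraries such likeness is a description of these samples.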

How the data were processed

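The authors ran miRDeep2 on single-end reads of 75 bases, against mm10 and miRBase version 22. They deposited raw whole-number counts, with a row for every combination of mature miRNA and precursor. The miRDeep2 version and mismatch settings are not given in the sources used here, so reads shared by near-identical miRNAs may be counted on each. Of 1211 rows, the precursor row with the highest total was kept for each of 1059 names, and the 274 names that had 10 counts or more in 2 libraries or more entered the test. The 4 miRNAs have 1 precursor row each. edgeR 4.0.16 (limma 3.58.1, R 4.3.3) gave the quasi-likelihood test with TMM scaling, genotype as the only factor and Benjamini-Hochberg adjustment at 0.05; the study's tool, DESeq2 (1.42.0), was run as an alternative. The fit was tested on simulated data. Ratios were compared by exact permutation tests, and intervals were computed with scipy 1.17.1 under Python 3.11.15. Hairpins were folded with RNAfold 2.7.2, and introns of protein-coding genes were taken from GENCODE M21. Named miRNAs were the 4, others described as made without Drosha, mirtrons by position, miR-451a and miR-9-5p as partners in ratios, tissue markers, the 3 nearest patterns of each miRNA tested, and miRNAs sharing a seed. The miRNAs and lists were chosen with earlier results of these data known. No 2 libraries agreed within sampling noise, with a chi-square per miRNA of 52.2 to 215. Alternatives were other scalings, no count minimum, summed precursor rows, a replicate block, DESeq2 and leaving out each library. Libraries left alone in a group were assumed to vary like the other group.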

Additional observations from a re-analysis of the deposited data

How the results depend on the processing

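miR-484 had a negative log2 fold change in all 12 alternatives, from −0.89 to −0.068 (edgeR or DESeq2, adjusted p from 0.152 to 0.986), and passed in 0 of them. Leaving out each library in turn gave −0.63 to −0.22. It was under 0.05 before adjustment with equal red-cell miRNAs, with no count minimum and without control replicate 2. miR-877-5p turned positive in 6 of 12, at 0.027 with DESeq2's size factors, 0.39 with total counts, 0.21 with total counts without miR-9-5p, 0.027 in DESeq2's Wald test, 0.15 without Rx-Dicer replicate 1 and 0.099 without control replicate 1, with a range of −0.18 to 0.15 on leaving out libraries (adjusted p from 0.377 to 0.995 over edgeR and DESeq2). The scalings also moved the median of all miRNAs tested, and relative to it miR-877-5p stood at −0.067 to −0.045 under the 5 scalings. The ratio of miR-484 to miR-9-5p changed sign to −0.19 without control replicate 2 and ranged to 0.81. The number of miRNAs called lower was 7 with edgeR, and 4 with DESeq2's size factors, 0 with total counts, 3 without miR-9-5p in the total, 11 with equal red-cell miRNAs, 14 with no count minimum and 11 with DESeq2's Wald test. It was 0 to 6 on leaving out each library. With the replicate block it was 0, with 20 lower and 4 higher before adjustment, and miR-484 was at −0.45. Deviations from the group means correlated weakly between same-numbered libraries (r = 0.085 over 274 miRNAs). With 2 libraries per group this single correlation cannot decide whether replicate numbers pair the libraries. No alternative called a miRNA higher. The cause was not tested. Depth limits miR-320-5p and miR-1224-5p, which have a single precursor row each, so summing rows does not test their counts.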
